A study of Mus musculus with 12 samples.

Results

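The 9 genes described here encode enzymes of peroxisomal beta-oxidation and one protein of peroxisome division: Ehhadh, Acaa1a, Acaa1b, Acox2, Hsd17b4, Ech1, Eci2, Decr2 and Pex11a. They were chosen by gene symbol, with earlier results of these data known, and all 9 were found among 22471 features in each of 12 mouse RNA-seq libraries. The libraries formed 4 groups of 3: control primary hepatocytes (Con), cells given oleic acid (ConOA), cells given the uricosuric drug benzbromarone (BBR), and cells given both together (BBROA). Oleic acid (OA) is a common dietary fatty acid that fills cultured hepatocytes with lipid droplets, and it was added bound to serum albumin. Each agent was used at a single dose for a single exposure time, so no dose or time course could be described. Whether the Con and BBR cells received the albumin carrier was not given in the sources used here. All groups shared the same source, wild-type young male C57BL/6J mice whose livers were digested with collagenase, and none carried a transgene or a deletion. The labels give the tissue as liver and do not say whether replicates 1 to 3 came from separate mice or separate wells, so p-values measure only the spread between these labelled replicates.

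Peroxisomes shorten very long chain, branched and dicarboxylic fatty acids and the side chain of bile acid precursors, working beside the mitochondrial pathway that burns most fatty acids. An acyl-CoA oxidase opens each round and releases hydrogen peroxide, a bifunctional enzyme hydrates and oxidizes the product, and a thiolase cleaves off the shortened chain. Auxiliary isomerases and a reductase prepare the double bonds of unsaturated chains. In rodent liver many of these genes are classical targets of PPAR alpha, the nuclear receptor that fatty acids and fibrate drugs activate.

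Library depth was between 15485508 and 23668379 estimated counts. The lowest count of any of the 9 genes in a library was 211, so none was near the detection limit. The 10 hepatocyte markers summed to between 36300 and 44951 CPM (counts scaled to normalized library size, per megaread) in every library, whereas 8 endothelial markers reached at most 71.9 CPM and 8 stellate cell markers at most 31.5 CPM. Most of the hepatocyte sum was Alb (mean 28091 CPM in Con and 29571 CPM in BBR), and its members did not move together. Cps1 was at 17.9 CPM in Con, 178 CPM in ConOA, 9.70 CPM in BBR and 193 CPM in BBROA. Fgb was at 2147 CPM in Con and 1215 CPM in BBR, whereas Ttr was at 949 CPM in Con and 1071 CPM in BBR. The summed level of 10 Kupffer cell markers was 141 to 182 CPM in the BBR libraries and 101 to 123 CPM in the other 9. Most of that sum was Cd68 (mean 80.0 CPM in Con and 131 CPM in BBR), and the members did not move together: Cd5l was at 5.98 CPM in Con and 3.70 CPM in BBR, and Marco at 1.20 CPM in Con, 1.64 CPM in BBR, 6.90 CPM in ConOA and 8.01 CPM in BBROA. The summed level of 6 cholangiocyte markers was 592 to 720 CPM in Con, 390 to 422 CPM in BBR, 243 to 273 CPM in ConOA and 199 to 240 CPM in BBROA, with Cftr at 0 in all Con and BBR libraries and Krt7 at 0 in all Con libraries. That sum was mostly Spp1 (613 CPM in Con and 343 CPM in BBR), whereas Sox9 (32.3 and 48.8 CPM), Krt19 (6.90 and 11.2 CPM) and Epcam (1.85 and 3.52 CPM) had higher means in BBR than in Con. The part of these cells in the differences below was not tested. In bulk libraries fewer cells of a type and less RNA per cell cannot be told apart.

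The genes were compared with edgeR's quasi-likelihood test over all features that passed a low-count filter, and a gene was called at a Benjamini-Hochberg adjusted p under 0.05. As the genes were chosen with earlier results known, the shares over all features beside their counts are description and not a test. BBR given alone raised 5 of the 9 genes and lowered 1, against 27.7% of all 12555 features called in either direction, 13.2% called higher and 14.5% called lower. BBR given with OA raised 8 of the 9 and lowered none, against 4.59% of 12278 features called, 1.95% higher and 2.63% lower. OA given alone raised 1 and lowered 5, against 42.8% of 12418 features called, 21.3% higher and 21.5% lower. OA given with BBR raised 3 and lowered 3, against 38.9% of 12416 called, 20.1% higher and 18.8% lower. With the replicate block, 8 of the 9 were called for OA given alone, 2 higher and 6 lower, against 53.4% of features. For the OA comparisons the share of members called therefore stands beside a background in which a large part of the transcriptome was called. The BBR effect differed between cells without and with OA (the interaction term fitted to all 12 libraries) for 6 genes, 5 in the positive and 1 in the negative direction, against 12.2% of 12742 features, 6.87% positive and 5.31% negative.

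Without OA, BBR moved the members by a median of 0.26 on the log2 scale, while the median over all features was -8.54e-04. With OA the median was 0.39, beside -3.12e-04 over all features. The pair of BBR comparisons shared no library. The genes higher in both were 5: Ehhadh, Acaa1b, Ech1, Eci2 and Pex11a. Of the 12155 features tested in both comparisons, 113 (0.93%) were higher in both. The 3 replicates of the 2 groups did not overlap for 7 of the 9 genes in BBR against Con (41.5% of all features) and for all 9 in BBROA against ConOA (23.9%). In BBROA against ConOA the count of 8 called genes became 5 without ConOA replicate 2, when Acaa1a, Hsd17b4 and Pex11a were no longer called and the background was 2%. With the replicate number as a block, 9 genes were called, 8 higher and 1 lower, against a background of 10.9%. That pairing is not given by the labels and was inferred from correlations of same-numbered libraries in these data.

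**Figure D1:**
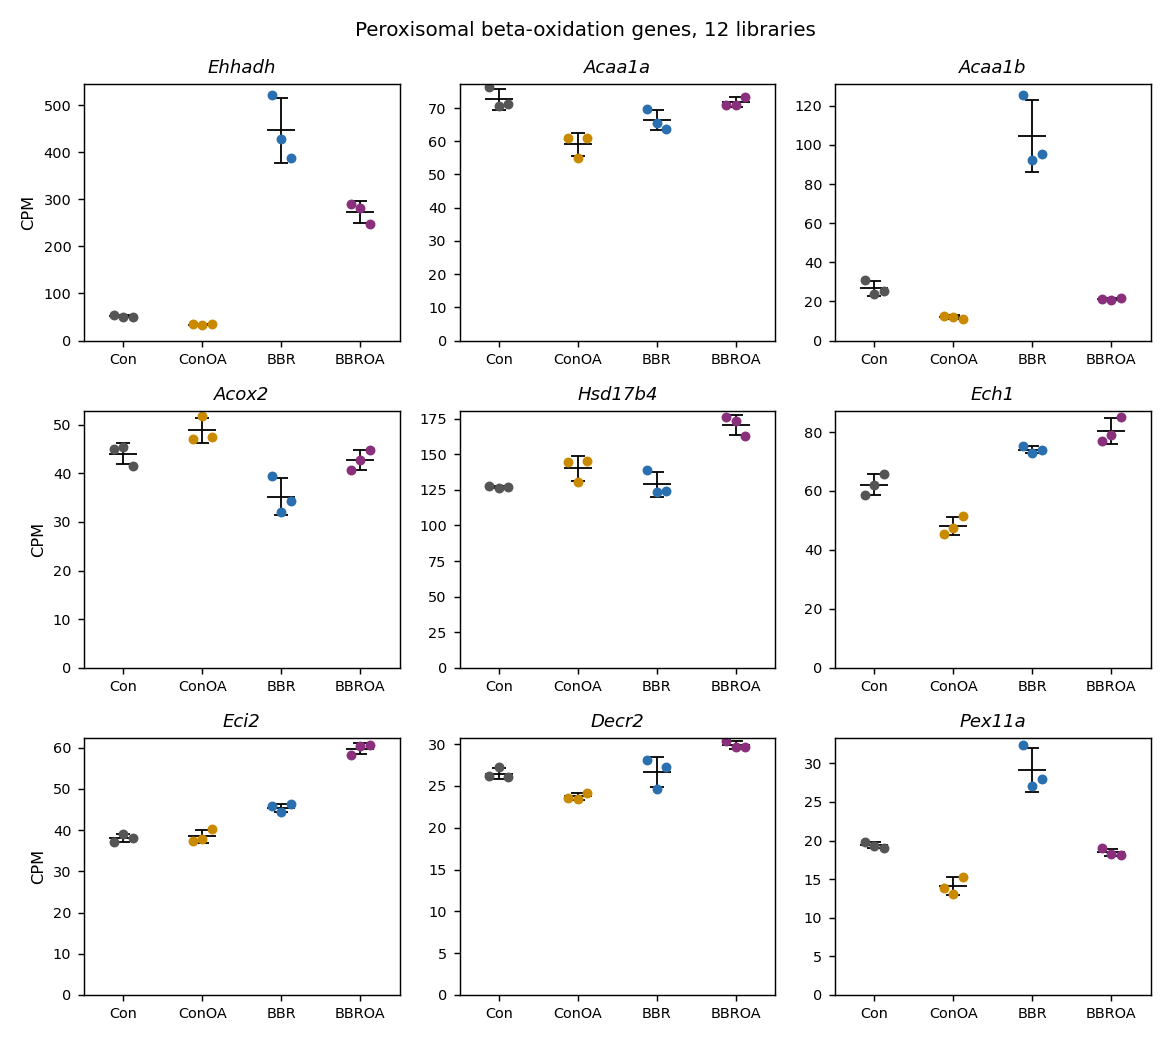
Level of each of the 9 genes in CPM (vertical axes from 0) in the 3 libraries of each group; points are libraries, and the bar with whiskers is the mean ± SD. Ehhadh lies between 247 and 521 CPM in the 6 libraries with BBR and between 32.5 and 54.2 CPM in the 6 without, whereas the group means of Acaa1a, Decr2, Hsd17b4 and Acox2 span 1.23-, 1.26-, 1.35- and 1.39-fold.

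Ehhadh (chr16:21761287-21787807, minus strand) encodes the L-specific bifunctional enzyme, which hydrates and dehydrogenates straight-chain enoyl-CoA esters. Its levels were 54.2, 50.2 and 49.8 CPM in the 3 Con libraries and 521, 429 and 389 CPM in the BBR libraries. With OA they were 34.5, 32.5 and 34.9 CPM in ConOA and 291, 281 and 247 CPM in BBROA. Each group was separate from every other, in the order BBR, BBROA, Con and ConOA. BBR raised Ehhadh 8.75-fold without OA (log2 difference 3.13 ± 0.09 SE, edgeR adjusted p = 4.17e-13) and 8.02-fold with OA (3.00 ± 0.07 SE, edgeR adjusted p = 1.05e-12). Counted from the largest rise, Ehhadh was at rank 4 of 12555 features in BBR against Con and at rank 2 of 12278 in BBROA against ConOA. OA lowered it without BBR (log2 difference -0.59 ± 0.06 SE, edgeR adjusted p = 3.10e-06) and with BBR (-0.71 ± 0.09 SE, edgeR adjusted p = 1.46e-05). The interaction was -0.11 with a 95% interval of -0.37 to 0.14 (edgeR adjusted p = 0.615), or 0.0100 without BBR replicate 1, so no difference between the BBR effects without and with OA was detected for this gene. Ehhadh alone supplied 8.06% to 11.4% of the counts of the 9 genes in the libraries without BBR and 33.2% to 48.5% in those with BBR.

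Hsd17b4 (chr18:50128201-50196269, plus strand) encodes the D-specific bifunctional enzyme, which serves branched chains and bile acid precursors and catalyses the same steps as Ehhadh through the opposite stereoisomer. It was measured at 128, 126 and 127 CPM in Con and 139, 123 and 125 CPM in BBR, ranges that overlapped. With OA the levels were 145, 130.2 and 145 CPM in ConOA and 176, 173 and 163 CPM in BBROA, ranges that did not. The BBR effect was 0.03 ± 0.05 SE on the log2 scale without OA (95% interval -0.07 to 0.14, edgeR adjusted p = 0.672) and 0.28 ± 0.05 SE with OA (edgeR adjusted p = 0.00803). The second of these calls was lost without ConOA replicate 2 (edgeR adjusted p = 0.0556) and without BBROA replicate 2 (edgeR adjusted p = 0.0542). Hsd17b4 was the single member that OA raised in the absence of BBR (0.15 ± 0.05 SE, edgeR adjusted p = 0.0367), a call that was lost with upper quartile scaling, on the FPKM values, and when Con replicate 1, 2 or 3 or ConOA replicate 1 or 3 was left out. In the presence of BBR, OA raised it by 0.40 ± 0.05 SE (edgeR adjusted p = 2.54e-05).

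The pair of bifunctional enzymes can be compared per transcript length through FPKM (fragments per kilobase of transcript, scaled to sequencing depth). The Ehhadh to Hsd17b4 ratio of FPKM was 0.378, 0.354 and 0.349 in the Con libraries, 0.212, 0.222 and 0.214 in ConOA, 3.34, 3.09 and 2.78 in BBR and 1.47, 1.44 and 1.35 in BBROA. Thus Hsd17b4 had the higher FPKM in all 6 libraries without BBR and Ehhadh had the higher FPKM in all 6 libraries with it. In mean FPKM, Ehhadh was sixth of the 9 genes in Con (17.3) and ConOA (11.1), and first in BBR (149) and BBROA (89.7). The genes with the highest mean FPKM without BBR were Ech1 in Con (49.7) and Hsd17b4 in ConOA (51.6).

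Acaa1a (chr9:119339676-119350299, plus strand) and Acaa1b (chr9:119148023-119157093, minus strand) encode a pair of peroxisomal thiolases, which perform the last, chain-cleaving step. Their coding sequences are both 1275 bases long and 96.5% identical, with one identical stretch of 327 bases, and they were the 2 members with fractional estimated counts in the deposited tables. How reads common to both were divided was not given in the sources used here, so their separate values are uncertain. The Acaa1a exons also overlap those of Myd88, and the Acaa1b exons those of Dlec1, on the opposite strand, and reads from such overlaps cannot be told apart where strand is not used.

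Acaa1b was at 31.0, 24.0 and 25.1 CPM in Con and 126, 92.4 and 95.1 CPM in BBR, with all BBR libraries above all Con libraries. With OA it was at 12.7, 12.2 and 10.8 CPM in ConOA and 21.3, 20.9 and 21.7 CPM in BBROA, where the BBROA libraries lay below every Con library. BBR raised Acaa1b 3.96-fold without OA (log2 difference 1.98 ± 0.11 SE, edgeR adjusted p = 4.80e-09) and 1.79-fold with OA (0.84 ± 0.08 SE, edgeR adjusted p = 3.85e-05). The interaction of -1.13 ± 0.17 SE (edgeR adjusted p = 2.23e-04) was the only negative one called among the 9 genes. OA lowered Acaa1b without BBR (log2 difference -1.16 ± 0.10 SE, edgeR adjusted p = 7.72e-07) and with BBR (-2.30 ± 0.10 SE, edgeR adjusted p = 1.18e-09). These were the largest falls among the members in both OA comparisons.

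Acaa1a levels were 76.3, 70.5 and 71.1 CPM in Con, 61.1, 55.0 and 61.1 CPM in ConOA, 69.6, 65.6 and 63.7 CPM in BBR and 71.1, 71.0 and 73.4 CPM in BBROA. The ConOA libraries were the lowest, and the Con and BBROA ranges overlapped. BBR alone gave -0.12 ± 0.05 SE on the log2 scale (95% interval -0.23 to -0.01, edgeR adjusted p = 0.102), whereas with OA it raised Acaa1a by 0.28 ± 0.06 SE (edgeR adjusted p = 0.0109). That second call was lost without ConOA replicate 2 (edgeR adjusted p = 0.0645) and without BBROA replicate 3 (edgeR adjusted p = 0.0643). Without OA all BBR libraries lay below all Con libraries, and with the replicate block Acaa1a was called lower there (edgeR adjusted p = 0.047). The interaction was 0.41 ± 0.08 SE (edgeR adjusted p = 0.0013), of opposite sign to that of Acaa1b. OA alone lowered Acaa1a (log2 difference -0.29 ± 0.06 SE, edgeR adjusted p = 0.00107), while with BBR the difference was 0.11 ± 0.05 SE (edgeR adjusted p = 0.0901), which passed the threshold only when BBR replicate 1 was left out (edgeR adjusted p = 0.0418).

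Because of the shared sequence the counts of both thiolases were also summed and tested as a single feature, a choice made after the fractional counts had been seen. The sum rose with BBR by 0.79 ± 0.07 SE on the log2 scale without OA (edgeR adjusted p = 7.91e-07) and by 0.39 ± 0.05 SE with OA (edgeR adjusted p = 5.47e-04). It changed with OA by -0.48 ± 0.06 SE without BBR (edgeR adjusted p = 1.97e-05) and with BBR (-0.88 ± 0.07 SE, edgeR adjusted p = 2.07e-07), and its interaction was -0.39 ± 0.10 SE (edgeR adjusted p = 0.0139). The summed counts of Acaa1a and Acaa1b therefore moved in the direction of Acaa1b in every comparison. Other thiolase genes were not part of the sum. The Acaa1b to Acaa1a ratio of FPKM was 0.404, 0.354 and 0.350 in Con, 0.211, 0.221 and 0.183 in ConOA, 1.86, 1.45 and 1.51 in BBR and 0.304, 0.307 and 0.307 in BBROA. Acaa1b exceeded Acaa1a per unit length only in the 3 BBR libraries among the 12.

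The upstream sequences of the most responsive gene and of both thiolases are shown to let the near-identical coding pair be compared outside its coding part. Each runs over the 250 bases before a RefSeq transcript start, 5′ to 3′ on the gene's strand, from RefSeq on build GRCm38.p6, the assembly to which mm10 corresponds, with CCAAT boxes (CCAAT, or ATTGG on the other strand) in capitals.
Ehhadh, chr16:21787835-21788084, strand minus: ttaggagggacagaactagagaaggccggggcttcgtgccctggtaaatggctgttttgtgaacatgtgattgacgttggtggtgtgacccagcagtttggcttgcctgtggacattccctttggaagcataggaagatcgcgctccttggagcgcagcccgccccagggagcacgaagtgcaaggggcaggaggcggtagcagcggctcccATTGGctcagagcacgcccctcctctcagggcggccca
Acaa1a, chr9:119341044-119341293, strand plus: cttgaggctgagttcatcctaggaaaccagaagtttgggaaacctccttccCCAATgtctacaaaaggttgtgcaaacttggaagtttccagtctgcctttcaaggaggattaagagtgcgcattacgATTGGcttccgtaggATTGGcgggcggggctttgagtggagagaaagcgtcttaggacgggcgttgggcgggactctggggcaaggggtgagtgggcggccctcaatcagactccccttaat
Acaa1b, chr9:119157094-119157343, strand minus: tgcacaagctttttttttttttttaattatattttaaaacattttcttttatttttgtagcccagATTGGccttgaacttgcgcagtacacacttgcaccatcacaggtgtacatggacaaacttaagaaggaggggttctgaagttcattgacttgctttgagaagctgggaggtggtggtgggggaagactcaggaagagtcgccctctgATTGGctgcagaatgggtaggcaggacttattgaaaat
The Ehhadh window held 1 CCAAT box and was 60.4% GC. The Acaa1a window held 3 CCAAT boxes and 3 GC boxes (GGGCGG, either strand) at 53.6% GC, whereas the Acaa1b window held 2 CCAAT boxes and no GC box at 41.6% GC. The median over all 32851 such windows was 52.4% GC, and 33.8% of them held CCAAT and 32.7% GGGCGG. Of the 9 genes, 8 had a window, 9 windows in all because Acox2 had 2 starts. RefSeq starts need not be the outermost starts of the GENCODE annotation from which the gene positions come: 4 of the 9 windows lay wholly and 2 partly inside the annotated gene, and that of Acaa1a began 1368 bases after the annotated start. CCAAT was found for 5 of them (Ehhadh, Acaa1a, Acaa1b, Acox2 and Eci2) and GGGCGG for 5 (Ehhadh, Acaa1a, Ech1, Eci2 and Decr2). The perfect direct repeat AGGTCANAGGTCA, the consensus to which PPAR and its partner RXR bind, was in none of the 9 windows and in 0.0335% of all windows. The single repeat unit AGGTCA was in none of the 9 and in 14% of all, and TATAAA in none of the 9 and in 12.4% of all, each searched on both strands. These counts describe letters in a short window and say nothing about binding elsewhere.

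**Figure D2:**
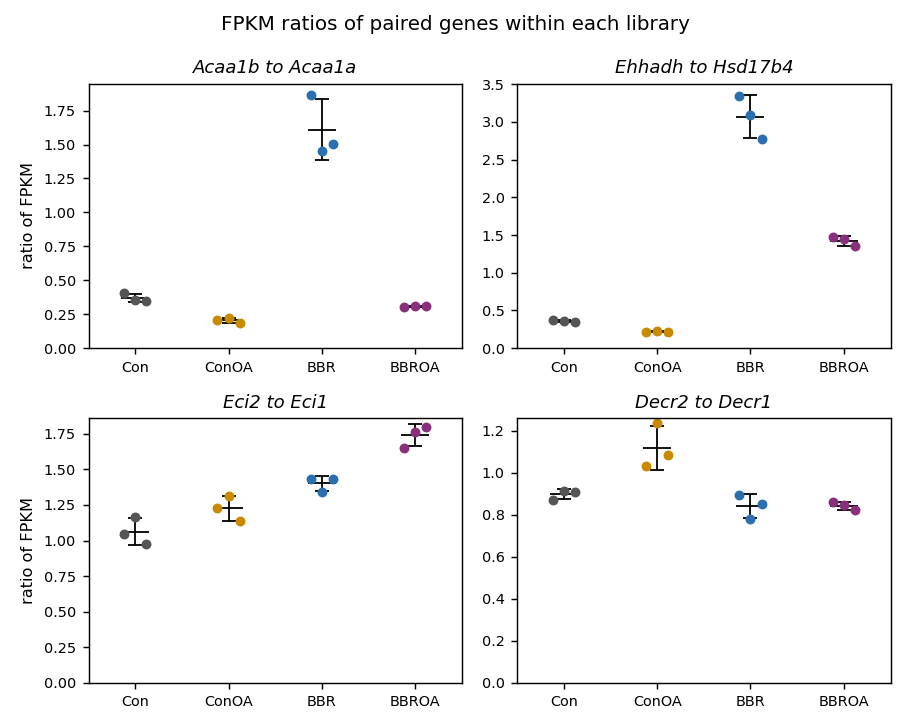
Ratio of FPKM between paired genes within each library (vertical axes from 0); points are libraries, and the bar with whiskers is the mean ± SD of 3. The Acaa1b to Acaa1a ratio is 1.45 to 1.86 in the BBR libraries and at most 0.404 in the other 9, and the Ehhadh to Hsd17b4 ratio is above 1 in all 6 libraries with BBR and in none without.

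Acox2 (chr14:8225511-8259353, minus strand) encodes the branched-chain acyl-CoA oxidase, which opens the shortening of bile acid precursors. It was the single member called lower with BBR in the main test. Its levels were 45.0, 45.5 and 41.6 CPM in Con and 39.4, 32.0 and 34.3 CPM in BBR, without overlap, and 47.1, 51.9 and 47.6 CPM in ConOA and 40.8, 42.7 and 44.8 CPM in BBROA, also without overlap. The BBR effect was -0.31 ± 0.07 SE without OA (edgeR adjusted p = 0.0042) and -0.19 ± 0.06 SE with OA (edgeR adjusted p = 0.0864), where the gene was called lower with the replicate block (edgeR adjusted p = 0.0298). The interaction of 0.12 was not called (95% interval -0.08 to 0.33, edgeR adjusted p = 0.481). OA gave 0.15 ± 0.06 SE without BBR (edgeR adjusted p = 0.0541), a difference that passed the threshold with the replicate block (edgeR adjusted p = 0.00888), with RLE scaling (edgeR adjusted p = 0.0497) and without ConOA replicate 3 (edgeR adjusted p = 0.0436). With BBR, OA raised Acox2 by 0.27 ± 0.07 SE (edgeR adjusted p = 0.00858).

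Acox3, another branched-chain oxidase and no member of the 9, differed by -0.01 ± 0.06 SE with BBR alone (edgeR adjusted p = 0.901) and by 0.07 ± 0.07 SE with BBR beside OA (edgeR adjusted p = 0.681), and OA alone lowered it (log2 difference -0.36 ± 0.07 SE, edgeR adjusted p = 5.75e-04).

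The auxiliary enzymes of unsaturated chains all rose with BBR in the presence of OA, and Ech1 and Eci2 also rose without it. Ech1 (chr7:28825217-28832247, plus strand), a dienoyl-CoA isomerase, was at 58.8, 62.0 and 65.8 CPM in Con and 75.2, 72.8 and 73.8 CPM in BBR, and at 45.3, 47.4 and 51.4 CPM in ConOA and 76.9, 79.0 and 85.2 CPM in BBROA. All BBROA libraries were above all others of the 12 and all ConOA libraries below. BBR raised Ech1 by 0.26 ± 0.05 SE without OA (edgeR adjusted p = 0.0013) and by 0.74 ± 0.06 SE with OA (edgeR adjusted p = 7.01e-06), and the interaction of 0.49 ± 0.08 SE was called (edgeR adjusted p = 4.88e-04). OA alone lowered Ech1 (log2 difference -0.37 ± 0.06 SE, edgeR adjusted p = 2.82e-04), while with BBR the OA difference was 0.11 ± 0.05 SE (edgeR adjusted p = 0.0784), which passed the threshold without BBROA replicate 1 (edgeR adjusted p = 0.0461).

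Eci2 (chr13:34977748-35027096, minus strand), an enoyl-CoA isomerase that shifts double bonds into the position beta-oxidation needs, was at 37.1, 39.1 and 38.1 CPM in Con and 37.4, 37.8 and 40.2 CPM in ConOA, which overlapped. It was at 45.7, 44.3 and 46.3 CPM in BBR and 58.2, 60.4 and 60.8 CPM in BBROA, each above both groups without the drug. BBR raised Eci2 by 0.26 ± 0.05 SE without OA (edgeR adjusted p = 0.00166) and by 0.63 ± 0.06 SE with OA (edgeR adjusted p = 1.49e-05), and the interaction was 0.38 ± 0.07 SE (edgeR adjusted p = 0.00162). OA gave 0.02 ± 0.06 SE without BBR (95% interval -0.11 to 0.15, edgeR adjusted p = 0.817) and raised Eci2 by 0.39 ± 0.05 SE with BBR (edgeR adjusted p = 2.07e-05). An antisense transcript, Gm16984, overlaps Eci2 exons, and its reads cannot be told apart where strand is not used.

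Decr2 (chr17:26081208-26090337, minus strand), the peroxisomal dienoyl-CoA reductase, was at 26.1, 27.3 and 26.1 CPM in Con and 28.1, 24.7 and 27.3 CPM in BBR, which overlapped. With OA it was at 23.5, 23.5 and 24.2 CPM in ConOA and 30.4, 29.6 and 29.6 CPM in BBROA, the lowest and the highest of the 4 groups. The BBR effect was 0.02 ± 0.07 SE without OA (95% interval -0.12 to 0.17, edgeR adjusted p = 0.827) and 0.33 ± 0.06 SE with OA (edgeR adjusted p = 0.00791). The OA difference was -0.15 ± 0.06 SE without BBR (edgeR adjusted p = 0.0709), called lower with the replicate block (edgeR adjusted p = 0.0469), and 0.15 ± 0.06 SE with BBR (edgeR adjusted p = 0.0694), called higher without BBR replicate 1 (edgeR adjusted p = 0.0499). The former was also called with upper quartile scaling (edgeR adjusted p = 0.0229) and on the FPKM values (limma adjusted p = 0.0382), and both were called with all 12 libraries in one fit.

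Pex11a (chr7:79735957-79743131, minus strand) encodes a membrane protein that elongates peroxisomes before they divide and is the inducible member of its family. It was at 19.8, 19.3 and 19.1 CPM in Con and 32.3, 27.0 and 28.0 CPM in BBR, and at 13.8, 13.1 and 15.3 CPM in ConOA and 19.0, 18.2 and 18.2 CPM in BBROA. All BBR libraries were above the rest of the 12 and all ConOA libraries below. BBR raised Pex11a by 0.60 ± 0.08 SE without OA (edgeR adjusted p = 1.92e-05) and by 0.39 ± 0.08 SE with OA (edgeR adjusted p = 0.017). The call with OA was lost without ConOA replicate 2 (edgeR adjusted p = 0.0834), without BBROA replicate 1, 2 or 3 (edgeR adjusted p = 0.0609, 0.0628 and 0.0595) and on the FPKM values (limma adjusted p = 0.0576). OA lowered it without BBR (log2 difference -0.46 ± 0.08 SE, edgeR adjusted p = 4.34e-04) and with BBR (-0.67 ± 0.08 SE, edgeR adjusted p = 9.42e-06). Its interaction of -0.20 was not called, with a 95% interval of -0.43 to 0.03 (edgeR adjusted p = 0.276).

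Pex11g, another protein of the Pex11 family, was at 9.36 ± 0.157 CPM (SD, n = 3) in Con and 7.42 ± 0.833 CPM in BBR (-0.33 ± 0.11 SE, edgeR adjusted p = 0.0354), a call that was lost with DESeq2 (adjusted p = 0.1) and when Con replicate 1, 2 or 3 or BBR replicate 1 or 2 was left out, and whose value on FPKM was 0.0305.

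**Figure D3:**
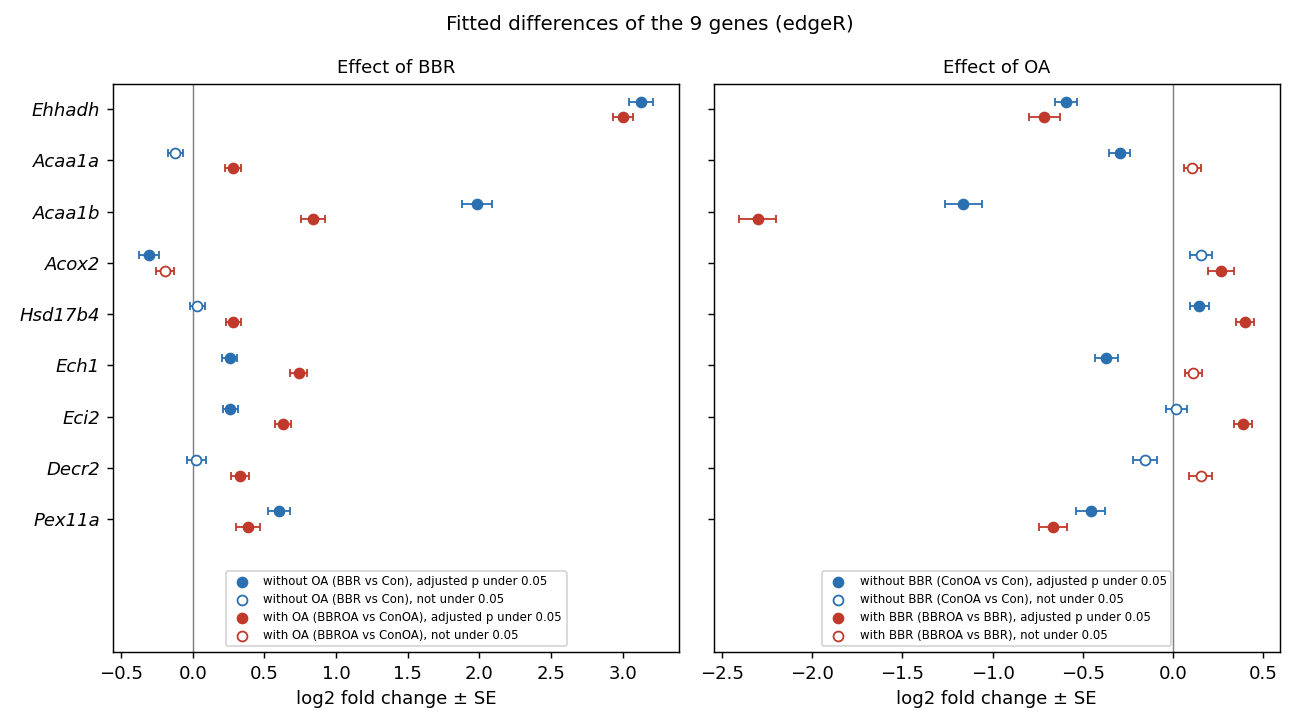
Fitted log2 difference ± SE of each gene for BBR (left, without and with OA) and for OA (right, without and with BBR), 3 libraries per group; filled points have an edgeR adjusted p under 0.05. Ehhadh stands at 3.13 and 3.00 for BBR, Acaa1b at 1.98 without OA and 0.84 with it, and Acaa1a, Acox2, Hsd17b4, Ech1, Eci2 and Decr2 lie further to the right with OA than without.

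Set side by side, the BBR effects of Acaa1a, Hsd17b4, Ech1, Eci2 and Decr2 were larger in the presence of OA, and the interaction of each was called. The values were 0.41 ± 0.08 SE for Acaa1a, 0.26 ± 0.07 SE for Hsd17b4 (edgeR adjusted p = 0.0273), 0.49 ± 0.08 SE for Ech1, 0.38 ± 0.07 SE for Eci2 and 0.32 ± 0.09 SE for Decr2 (edgeR adjusted p = 0.0205). The calls for Acaa1a, Acaa1b, Ech1 and Eci2 remained when any one of the 12 libraries was left out. That for Hsd17b4 was lost without Con replicate 1 or 2, ConOA replicate 2, BBR replicate 2 or 3, or BBROA replicate 1 or 2, and its value was 0.191 without ConOA replicate 2. That for Decr2 was lost without Con replicate 2, ConOA replicate 2, BBR replicate 2, or BBROA replicate 1 or 3, and with DESeq2 (adjusted p = 0.0608). Since OA alone and BBR alone were both compared with the Con libraries, the effects of the 2 agents on a gene share those controls, and the ConOA libraries likewise enter both ConOA against Con and BBROA against ConOA.

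The 9 genes spanned very different ranges over the 4 group means, from 1.23-fold for Acaa1a and 1.26-fold for Decr2 to 8.78-fold for Acaa1b and 13.1-fold for Ehhadh. Summed counts of the 9 made up 0.0474% ± 0.00119 (SD, n = 3) of a Con library, 0.0414% ± 0.00114 of a ConOA library, 0.0962% ± 0.0106 of a BBR library and 0.0762% ± 0.00223 of a BBROA library. As a description, likeness of pattern was measured over the 12 libraries as the root mean square difference of centred log2 CPM. Among 9987 other features of at least 5 CPM in some group mean, those nearest to Ehhadh were Acot1 (0.546), Pdk4 (0.603), Fbp2 (0.883), Rnf186 (0.977) and a feature with the symbol Pkd2l1 that carries no Ensembl identifier (0.994). Acot1 encodes a cytosolic acyl-CoA thioesterase and Pdk4 a kinase that inhibits pyruvate dehydrogenase. The nearest member to Ehhadh was Acaa1b, at 1.02, and the farthest Acox2, at 1.71. Nearest to the mean profile of the 9 genes were Hsdl2 (0.0848), Acsl1 (0.106), Slc22a5 (0.121), Hadhb (0.126) and Hadha (0.127). Acsl1 activates long-chain fatty acids, Slc22a5 carries carnitine into the cell, and Hadha and Hadhb form the mitochondrial trifunctional protein.

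The mitochondrial counterparts gave a second reference for each member. Of 15 mitochondrial beta-oxidation genes, BBR alone raised 7 and lowered 2 (median 0.11 on the log2 scale), and BBR with OA raised 9 and lowered none (median 0.40). Of all features, 27.7% and 4.59% were called in these comparisons. Hadha, which carries the hydratase and dehydrogenase steps there, rose by 0.36 ± 0.04 SE without OA (edgeR adjusted p = 1.50e-05) and 0.52 ± 0.05 SE with OA (edgeR adjusted p = 2.44e-05), beside 3.13 and 3.00 for Ehhadh. Acaa2, the mitochondrial thiolase, rose by 0.49 ± 0.05 SE (edgeR adjusted p = 4.24e-06) and 0.50 ± 0.06 SE (edgeR adjusted p = 2.08e-04) in the same comparisons. OA lowered Acaa2 without BBR (log2 difference -0.70 ± 0.06 SE, edgeR adjusted p = 3.49e-07) and with BBR (-0.69 ± 0.06 SE, edgeR adjusted p = 2.82e-07). The largest fall of the list with BBR alone was Hadh (-0.32 ± 0.06 SE, edgeR adjusted p = 0.00111). With OA, BBR raised Hadh (0.37 ± 0.07 SE, edgeR adjusted p = 0.011), and its interaction was the largest of the list (0.70 ± 0.10 SE, edgeR adjusted p = 2.51e-04).

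Decr1, the mitochondrial dienoyl-CoA reductase, gave 0.11 ± 0.05 SE with BBR alone (edgeR adjusted p = 0.141) and 0.73 ± 0.07 SE with BBR beside OA (edgeR adjusted p = 2.59e-05), the largest rise of its list there. The Decr2 to Decr1 ratio of FPKM was 0.898 ± 0.0234 (SD, n = 3) in Con, 1.12 ± 0.105 in ConOA, 0.842 ± 0.0586 in BBR and 0.843 ± 0.0187 in BBROA. Eci1, the mitochondrial isomerase, gave -0.18 ± 0.07 SE with BBR alone (edgeR adjusted p = 0.066). That difference passed the threshold without Con replicate 2 (edgeR adjusted p = 0.0332) and with the replicate block (edgeR adjusted p = 0.0397). With BBR beside OA, Eci1 gave 0.12 ± 0.07 SE (edgeR adjusted p = 0.406). The Eci2 to Eci1 ratio was 1.06 ± 0.0981 in Con, 1.23 ± 0.0881 in ConOA, 1.40 ± 0.0510 in BBR and 1.74 ± 0.0774 in BBROA, with the BBROA libraries above all others. OA alone moved 10 of the 15 mitochondrial genes, 4 higher and 6 lower, led by Acadl (0.60 ± 0.05 SE, edgeR adjusted p = 2.83e-07) and Acaa2, beside 42.8% of all features called. With the replicate block 13 were called, 6 higher and 7 lower, beside 53.4% of all features. Eci1 was among the lower ones (-0.19 ± 0.08 SE, edgeR adjusted p = 0.0824 without the block and 0.00869 with it). With BBR present OA moved 7 higher and 3 lower, beside 38.9% of all features called. Etfdh was the largest rise (0.73 ± 0.05 SE, edgeR adjusted p = 4.39e-08) and Acaa2 the largest fall.

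In the other peroxisomal lists no gene rose as far as Ehhadh or Acaa1b with BBR alone. Beside the counts of these lists, 27.7% of all features were called for BBR alone and 4.59% for BBR with OA. The shares were 42.8% for OA alone, 38.9% for OA with BBR and 12.2% for the interaction. Of 20 other peroxisomal acyl-CoA enzymes and transporters, BBR alone raised 4 and lowered 5 (median -0.04), with Acot4, a thioesterase, the largest rise (0.68 ± 0.10 SE, edgeR adjusted p = 5.81e-05) and Amacr, a racemase of branched acyl-CoA esters, the largest fall (-0.56 ± 0.10 SE, edgeR adjusted p = 6.03e-04). BBR with OA raised 9 of the 19 tested and lowered none (median 0.24), led by Slc27a2, a very long chain acyl-CoA synthetase (0.82 ± 0.09 SE, edgeR adjusted p = 5.85e-05). Abcd3, which imports acyl-CoA esters into peroxisomes, gave 0.04 ± 0.07 SE without OA (edgeR adjusted p = 0.735) and rose by 0.41 ± 0.05 SE with OA (edgeR adjusted p = 1.76e-04). OA alone raised 1 and lowered 12 of 19 (median -0.30), Crot, the carnitine octanoyltransferase, the most (-0.92 ± 0.07 SE, edgeR adjusted p = 9.13e-08) and with Acot4 as the single rise (0.68 ± 0.10 SE, edgeR adjusted p = 5.62e-05). OA with BBR raised 4 and lowered 6 of 20 (median 0.08), with Acot4 (0.65 ± 0.08 SE) and Abcd2 (-1.63 ± 0.43 SE, under 1 CPM in every group mean) at the ends. Without ConOA replicate 2 the 9 positive interactions of this list became 4, and without BBR replicate 3 or BBROA replicate 1 its 10 OA calls in the presence of BBR became 6. They became 4 with limma on log2(FPKM + 0.1).

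Peroxins and other biogenesis proteins were mostly not called. Their shares called were 17.4% for BBR alone, 8.7% for BBR with OA, 30.4% for OA alone and 34.8% for OA with BBR. Of all features, 27.7%, 4.59%, 42.8% and 38.9% were called in the same order. Of 23, BBR alone lowered 4 and raised none (median -0.05), with Pxmp2 the largest fall (-0.80 ± 0.22 SE, edgeR adjusted p = 0.0121). That count was 2 without Con replicate 2 or 3 or BBR replicate 1, 1 without BBR replicate 2, and 2 with DESeq2 or limma on log2(FPKM + 0.1). With the replicate block 7 were called, 2 higher and 5 lower, beside 33.1% of all features. BBR with OA raised Pxmp4 (0.72 ± 0.11 SE, edgeR adjusted p = 0.0019) and lowered Pex5 (-0.18 ± 0.05 SE, edgeR adjusted p = 0.0409), and 1 gene of the list was called when any one of the 6 libraries was left out and with DESeq2 or limma on log2(FPKM + 0.1). OA alone raised 1 and lowered 6, with Pex14 as the single rise (0.15 ± 0.05 SE, edgeR adjusted p = 0.0302), and the 7 calls became 2 without Con replicate 1, 3 without Con replicate 2 or ConOA replicate 1 or 2, and 3 with DESeq2. OA with BBR raised 5, led by Pxmp4 (0.91 ± 0.13 SE, edgeR adjusted p = 1.05e-04), and lowered 3, led by Pex5 (-0.25 ± 0.04 SE, edgeR adjusted p = 3.09e-04), and these 8 calls became 4 without BBR replicate 2 or BBROA replicate 2 and with DESeq2, and 5 with limma on log2(FPKM + 0.1).

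Of 9 tested genes of peroxisomal oxidases and peroxide handling, BBR alone lowered 6 and raised none (median -0.34), with Ddo, D-aspartate oxidase, the largest fall (-0.72 ± 0.12 SE, edgeR adjusted p = 3.78e-04). Cat, the catalase that removes the peroxide made by the acyl-CoA oxidases, was at 846 ± 33.2 CPM (SD, n = 3) in Con and 693 ± 26.7 CPM in BBR (-0.28 ± 0.05 SE, edgeR adjusted p = 4.56e-04), while Ehhadh rose in the same libraries. With OA the BBR effect on Cat was -0.06 ± 0.05 SE (edgeR adjusted p = 0.532), and 2 genes of the list were lowered, led by Hao1 (-0.52 ± 0.09 SE, edgeR adjusted p = 0.00315). Those 2 became 1 without ConOA replicate 2 or BBROA replicate 1 or 2 and with limma on log2(FPKM + 0.1). OA alone lowered 3, Cat among them (-0.63 ± 0.05 SE, edgeR adjusted p = 2.66e-07) and Ddo the most (-1.36 ± 0.15 SE, edgeR adjusted p = 7.76e-06), and with the replicate block 5 were called, 1 higher and 4 lower, beside 53.4% of all features. OA with BBR raised 2, led by Ephx2 (0.54 ± 0.05 SE, edgeR adjusted p = 2.76e-06), and lowered 3, led by Ddo (-0.74 ± 0.17 SE, edgeR adjusted p = 0.00391). Shares of this list called in the main test were 66.7% for BBR alone, 22.2% for BBR with OA, 33.3% for OA alone and 55.6% for OA with BBR. Of all features, 27.7%, 4.59%, 42.8% and 38.9% were called in the same order.

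Among 6 ether lipid and other peroxisomal enzymes, BBR alone raised 2, led by Far1 (0.64 ± 0.13 SE, edgeR adjusted p = 0.00136), and lowered Baat (-2.50 ± 0.26 SE, edgeR adjusted p = 2.70e-06), which conjugates bile acids made through the Acox2 branch with glycine or taurine. In the presence of OA no gene of this list was called for BBR by edgeR, DESeq2 or limma at an adjusted p under 0.05, 0 of the 6 had an unadjusted p under 0.05, and the BBR effect on Baat was -0.33 ± 0.21 SE (edgeR adjusted p = 0.425, interaction 2.18 ± 0.36 SE, edgeR adjusted p = 5.58e-04). OA alone raised 2 of the 6, led by Agxt (0.41 ± 0.14 SE, edgeR adjusted p = 0.024), a count that was 1 without Con replicate 3 or ConOA replicate 1 or 3 and 4 without ConOA replicate 2. OA with BBR raised 2, led by Baat (2.42 ± 0.27 SE, edgeR adjusted p = 7.09e-06), and lowered Far1 (-0.65 ± 0.14 SE, edgeR adjusted p = 0.00175). The medians of the list were 0.19 and 0.10 for BBR without and with OA. Shares of the list called were 50% for BBR alone, 33.3% for OA alone and 50% for OA with BBR. Of all features, 27.7%, 42.8% and 38.9% were called in the same order.

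**Figure D4:**
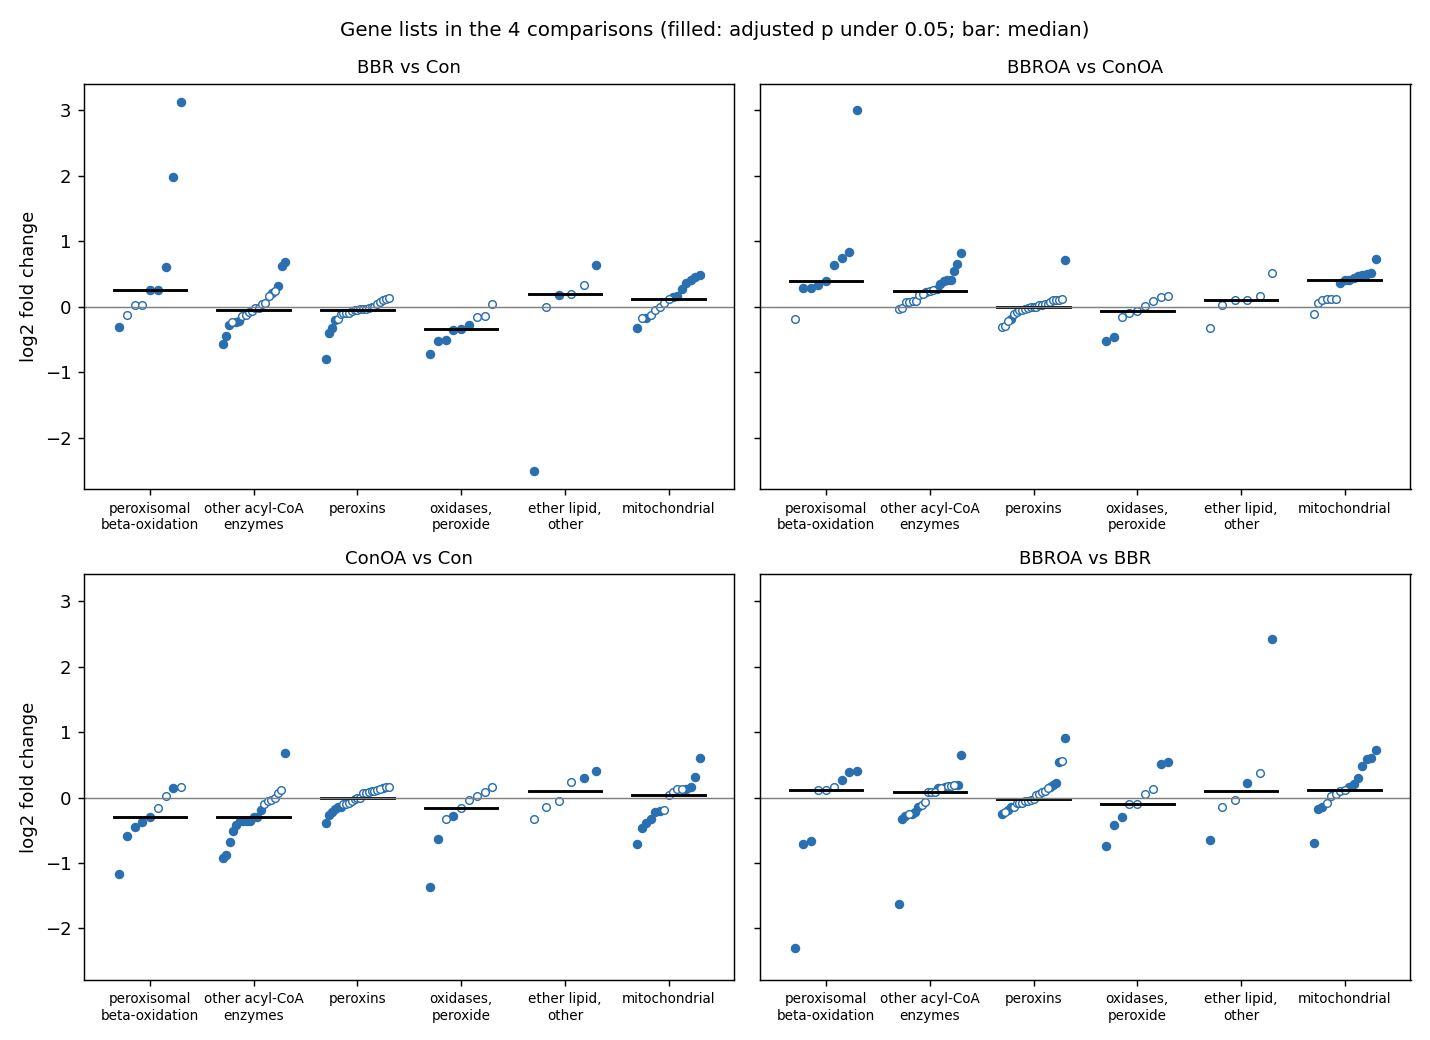
Log2 difference of every tested gene of 6 lists in the 4 comparisons, 3 libraries per group, ordered by value within a list; filled points have an edgeR adjusted p under 0.05 and the bar is the list's median. The 9 peroxisomal beta-oxidation genes have medians of 0.26, 0.39, -0.29 and 0.11 in BBR against Con, BBROA against ConOA, ConOA against Con and BBROA against BBR, and hold the 2 points above 1.5 in BBR against Con.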

How the data were processed

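Total RNA of 12 mouse hepatocyte libraries was selected with oligo(dT) beads and read on an Illumina HiSeq after random-primed cDNA synthesis. Per library, the authors deposited an estimated count and an FPKM value for each of 22471 features (21911 with Ensembl identifiers). The build is mm10 in the submitters' processing notes. The aligner, the counter and the use of strand were not given in the sources used here. Fractional counts occurred in 2862 features. Estimated counts were rounded to whole numbers, filtered with edgeR's filterByExpr (minimum count 10), normalized by TMM and tested with edgeR 4.0.16 (quasi-likelihood F test, R 4.3.3) over all features of the 6 libraries of each comparison, or over all 12 for the interaction. P-values were Benjamini-Hochberg adjusted. Levels are CPM on TMM-scaled library sizes, for which 1 count is worth 0.0423 to 0.0646 CPM, and ratios between genes use the deposited FPKM values.

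The 9 genes and 5 further gene lists (75 genes), as well as the marker lists, were chosen with earlier results of these data known. The rule for named genes was all 9 genes, fixed counterparts (Acox3, Pex11g, Eci1, Decr1, Acaa2, Hadha, Cat and Abcd3), and the largest called rise and fall of each list. Some genes under this rule are not reported here, although counts and medians of the lists include them. Replicate numbers come from the sample titles. Deviations from the group means correlated between same-numbered libraries at 0.257, 0.113 and 0.24 for BBROA and ConOA and at 0.322, 0.225 and 0.351 for ConOA and Con, so these were taken as paired, and the blocked value is given beside a difference whose call it changed and beside a count it moved by over 1.5 times. The pairing is an inference from the data under test. BBR and Con libraries (0.284, 0.0975 and 0.132) were not taken as paired, although each also correlated best with its own number. Their lowest value, 0.0975, lay close to the lowest value taken as pairing, 0.113. Blocked values are therefore given for BBR against Con as well, where they changed a call or moved a count in that way. Replicates differed by more than sampling noise (chi-square per degree of freedom 2.69 to 7.26). Alternatives were RLE and upper quartile scaling, no filter, DESeq2 1.42.0, limma 3.58.1 (voom, and on log2(FPKM + 0.1)), a 2-fold limit, each library left out, the replicate block, one fit over all 12 libraries and summed thiolase counts. Scripts were tested on simulated data. Gene positions come from GENCODE M21 (GRCm38), and coding sequences were aligned with Biopython 1.88.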

Additional observations from a re-analysis of the deposited data

Results flagged for a closer look

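The difference between the BBR effects without and with OA passed the test of the interaction itself for 6 of the 9 genes, against 12.2% of all 12742 features (edgeR, 3 libraries in each of 4 groups). In log2 units, as the BBR effect with OA minus that without, it was -1.13 for Acaa1b, 0.41 for Acaa1a, 0.26 for Hsd17b4, 0.49 for Ech1, 0.38 for Eci2 and 0.32 for Decr2. The thiolase genes share sequence, and their summed counts gave -0.39 (edgeR adjusted p = 0.0139). Those for Hsd17b4 and Decr2 were lost on leaving out any of several libraries, as given above. Groups of 3 libraries were too small for a formal test of outlying libraries, but each library was left out in turn. Without BBR replicate 1 the sign changed for Hsd17b4 (-0.0199), Decr2 (-0.011) and Abcd3 (-0.072) in BBR against Con. The Ehhadh interaction (0.0100) also changed sign without that library. Some other differences changed sign without other libraries.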

How the results depend on the processing

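Of the 9 genes' differences recomputed under the alternatives, 633 kept direction and side of the threshold, 29 lost and 13 gained a call, and 10 changed sign. The cause was not tested except where the construction shows it. With a 2-fold change required as well, the called genes were 2 in BBR against Con (2.2% of all features), 1 in BBROA against ConOA (0.252%), 1 in ConOA against Con (4.97%), 1 in BBROA against BBR (4.43%) and 1 for the interaction (1.26%). With any one library left out, the 8 called genes of BBROA against ConOA became 5 to 8, the lowest without ConOA replicate 2. The replicate block called 7 genes in BBR against Con (5 higher, and Acox2 and Acaa1a as the 2 lower, beside 33.1% of all features), 6 in BBROA against BBR (42.5%) and 6 for the interaction (17.8%), and changed no call of the 9 genes in the paired comparisons beyond those of Acox2 and Decr2 given above. In the paired comparisons it also called 11 rather than 9 other acyl-CoA genes and 3 rather than 2 oxidase genes (BBROA against ConOA, beside 10.9% of all features), and 8 rather than 7 peroxins and 3 rather than 2 ether lipid genes (ConOA against Con, beside 53.4%). In BBR against Con every library correlated best with its own number, and in BBROA against BBR 2 of 3 did, a hint from the data and not the design.

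Changes of sign came from summing the thiolase counts, which replaces Acaa1a by the sum of both genes, in BBR against Con (0.79), BBROA against BBR (-0.88) and the interaction (-0.39). Eci2 in ConOA against Con was -0.027 with upper quartile scaling and -0.017 on FPKM, and Decr2 in BBR against Con was -0.00093 on FPKM. On FPKM, Acox3 (0.096) and Pex11g (0.0305) in BBR against Con and Pex11g in BBROA against BBR (-0.093) also changed sign, the first Pex11g value against -0.33 in the main test. The lowest values of Hsd17b4, Decr2 and Abcd3 in the next ranges were those without BBR replicate 1. With any one library left out, values in BBR against Con were -0.0199 to 0.061 for Hsd17b4, -0.011 to 0.072 for Decr2, -0.038 to 0.0083 for Acox3 and -0.072 to 0.12 for Abcd3. They were -0.038 to 0.096 for Pex11g in BBROA against ConOA, and -0.015 to 0.041 for Eci2 in ConOA against Con. For the interaction they were -0.21 to 0.0100 for Ehhadh and -0.049 to 0.081 for Acaa2.

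With 3 libraries a group, several differences under 0.3 on the log2 scale lay near the threshold, and a gene not called is not shown to be unchanged.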
